A study of Mus musculus with 6 samples.

Results

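The genes described here are the 7 insulin-like growth factor binding proteins, Igfbp1 to Igfbp7, with the ligand gene Igf2 and the receptor genes Igf1r and Insr. These 10 genes, of 24956 rows in the deposited table, were picked by gene family, with the RPKM values of the same 6 libraries already known, and all 10 were found by symbol. Their difference between the groups is therefore given as a description, and nothing is concluded from the fit over all genes for these 10. RNA was sequenced from mouse intestinal organoids, cultures of gut epithelium that form crypt-like buds, carrying the Apc Min genotype in both groups. Apc is a tumour suppressor gene that limits Wnt signalling, and Min is a truncating allele of it. The 3 control libraries came from organoids in control medium and the 3 low glutamine libraries from organoids in low glutamine medium. The sources used here do not give glutamine concentrations, time in the medium, the segment of gut, or the age, strain and number of animals, and the series' design text calls the samples biological replicates without saying whether they were separate animals or cultures. If they were cultures of 1 line, the errors measure only the spread between cultures.

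Insulin-like growth factors are secreted ligands that act through the tyrosine kinase receptor encoded by Igf1r, while Insr encodes the insulin receptor, which also binds IGF-II in one of its splice forms. The binding proteins hold IGFs outside the cell, extend their life and keep them from the receptor, and proteases that cut the binding proteins set the ligand free. Some binding proteins also act on cells without IGF, and IGFs are known growth factors of the gut epithelium. In the intestine much of the IGF comes from the mesenchyme, which organoids lack.

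The libraries stood apart in sex-linked RNA before any other comparison. Xist, the RNA that silences an X chromosome, measured 83.1 to 90.5 RPKM in the controls against 0.0237 to 0.035 RPKM in low glutamine, and the Y-linked genes Eif2s3y, Kdm5d and Uty were listed at 0 in each control library and at 4.37 to 31.4 RPKM in low glutamine. Every control library carried the one pattern and every low glutamine library the other, so sex and medium cannot be told apart in any result given here. Epithelial markers were high in both groups (7 genes, summed 2069 to 2264 RPKM in the controls against 2581 to 2666 in low glutamine). Epcam, Cdh1, Krt8 and Krt18 were higher in low glutamine and Vil1, Krt19 and Cldn7 lower, each without overlap. Depth estimated from the lowest values was 24.4 to 35.4 M reads (M, mega) in the controls and 28.3 to 34.0 M in low glutamine.

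The start regions of the 2 most abundant binding protein genes are shown because these genes carried most of the difference. Each is the 250 bases before a RefSeq transcript start on GRCm38.p6 (mm10), plus strand, at chr1:72824230-72824479 for Igfbp2 and chr11:99040994-99041243 for Igfbp4. The Igfbp4 stretch lies inside the RefSeq gene bounds, which begin at 99040005. In Igfbp2 the capitals mark CACGTG, the E-box, and in Igfbp4 they mark TATAAA, the TATA box.
Igfbp2: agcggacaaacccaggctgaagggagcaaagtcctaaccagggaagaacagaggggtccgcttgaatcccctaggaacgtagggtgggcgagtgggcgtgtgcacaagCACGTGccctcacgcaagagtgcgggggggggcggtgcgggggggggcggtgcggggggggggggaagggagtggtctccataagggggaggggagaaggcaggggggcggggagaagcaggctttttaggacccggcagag
Igfbp4: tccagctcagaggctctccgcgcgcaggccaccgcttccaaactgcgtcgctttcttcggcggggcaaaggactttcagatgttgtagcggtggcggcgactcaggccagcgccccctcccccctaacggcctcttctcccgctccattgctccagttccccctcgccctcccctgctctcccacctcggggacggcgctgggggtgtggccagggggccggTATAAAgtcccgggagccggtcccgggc

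The E-box began 142 bases before the Igfbp2 start and the TATA box 28 bases before the Igfbp4 start. Both stretches were rich in G and C, at 67.2% and 69.2%, beside a median of 52.4% over all promoters. Motifs were searched on both strands in windows of 300 bases (250 before and 50 after the start). RefSeq windows were matched for 9 of the 10 genes, 13 windows in all. CACGTG occurred in 1 of them and in 7.15% of all 32851 windows. CTTTGA, the core of TCF/LEF sites through which beta-catenin acts, occurred in 2, the window of Igf1r (89 bases before the start) and 1 window of Igf2 (207 bases before), beside 16.0% of all windows. GTAAACA, the core of FOXO sites, and TGATGNAA, the ATF4 composite element, occurred in 0 of the 13, beside 3.65% and 3.97% of all. TATAAA, added after the sequences were seen, occurred in 2 (Igfbp4 and Igfbp6) and in 13.6% of all windows. No window held more than 1 match, so no motifs overlapped.

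Igfbp2 showed the widest gap in RPKM and on the log2(RPKM + 1) scale. Its product is a binding protein of fetal tissues and serum that also binds integrins through an RGD motif. The gene lies on chromosome 1, 72824480 to 72852474 (RefSeq gene 16008). Igfbp2 measured 2.74, 2.91 and 2.81 RPKM in control replicates 1 to 3 against 115, 112 and 109 RPKM in low glutamine replicates 1 to 3. The 3 low glutamine libraries lay far above the controls, and within each group the replicates were close together (coefficients of variation 3.15% and 2.86%). The means, 2.82 ± 0.0888 and 112 ± 3.20 RPKM (SD, n = 3), differed 39.6-fold, and on the log2(RPKM + 1) scale by 4.88 ± 0.05 (SE, limma), rank 4 from the top among 11082 genes. At the estimated depths these levels correspond to 68.6 to 103 reads per kilobase of transcript in control and 3070 to 3910 in low glutamine. In bulk RNA, more cells that express a gene and more RNA per cell cannot be told apart, and this holds for each gene here.

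Igfbp4 was the most abundant binding protein in control organoids. It encodes an inhibitor of IGF action that pappalysin (Pappa) cuts, and lies on chromosome 11, 99040005 to 99052655. Control replicates 1 to 3 stood at 16.4, 16.8 and 15.7 RPKM, and low glutamine replicates 1 to 3 at 48.4, 46.6 and 52.2 RPKM. Groups did not overlap, and low glutamine replicate 3 was the highest of all 6 libraries. The means of 16.3 ± 0.572 and 49.1 ± 2.84 RPKM differed 3.01-fold (log2 difference 1.53 ± 0.06 SE). In whole reads, recovered from the RPKM steps as described under the processing, Igfbp4 rested on 1070, 1245 and 801 reads in control and 3447, 3217 and 3088 in low glutamine. These counts imply a transcript of 2094 bases, where the nearest annotated length was 799, so their scale is uncertain.

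**Figure D1:**
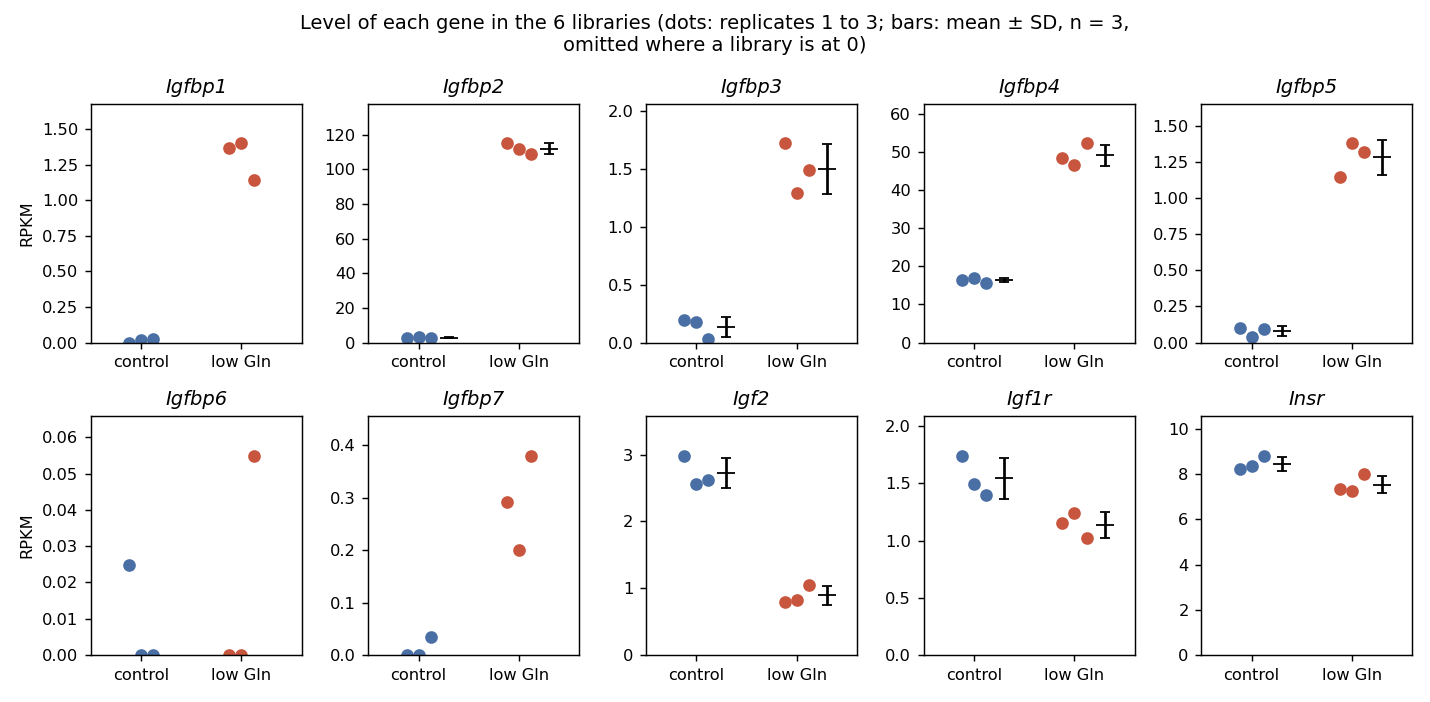
RPKM of each of the 10 genes (vertical axes, linear from 0) in the 3 control and 3 low glutamine libraries, 1 dot per library with replicates 1 to 3 from left to right, and mean ± SD (n = 3) where no library is at 0. The dots of Igfbp1, Igfbp2, Igfbp3, Igfbp4, Igfbp5 and Igfbp7 are all higher in low glutamine, those of Igf2, Igf1r and Insr all lower, and those of Igfbp6 overlap.

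Igfbp1, Igfbp3, Igfbp5 and Igfbp7 were near 0 in control and low but present in low glutamine. Igfbp1 encodes a binding protein best known from the liver, where insulin represses it. It was listed at 0, 0.0186 and 0.0269 RPKM in control replicates 1 to 3 against 1.37, 1.40 and 1.14 RPKM in low glutamine. These values are 0, 1 and 1 reads against 71, 70 and 49 reads, so the control level rests on 2 reads. A count of 0 in control replicate 1 allows up to 0.0632 RPKM (3 reads). Per unit of depth the ratio was 90.8 (exact 95% interval 24.8 to 755, counting error only). It was 59.7 without control replicate 1 and 133 without control replicate 3. The log2 difference, which understates the change of such low genes, was 1.18 ± 0.05 in the fit with no filter on low values.

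Igfbp3, whose product carries most of the IGF in blood, stood at 0.197, 0.174 and 0.0335 RPKM in the controls against 1.72, 1.29 and 1.49 RPKM in low glutamine. Control replicate 3 was lower than the other controls, with 2 reads where they had 15 each. Low glutamine replicates 1 to 3 had 143, 104 and 103 reads. The groups were apart, with a read ratio of 10.5 (interval 7.27 to 15.5) that was 8.16 without control replicate 3.

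Igfbp5 encodes the most conserved binding protein of the family, which attaches to extracellular matrix. Its levels were 0.104, 0.0386 and 0.0909 RPKM in the controls against 1.15, 1.38 and 1.32 RPKM in low glutamine, from 19, 8 and 13 reads and 229, 267 and 219 reads. No low glutamine library came near a control, and the read ratio was 17.1 (interval 12.4 to 24.1).

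Igfbp7 encodes a matrix protein of vessels and stroma that binds IGF weakly. It had 0, 0 and 1 reads in control (0, 0 and 0.0338 RPKM) and 12, 8 and 13 reads in low glutamine (0.291, 0.201 and 0.380 RPKM). The libraries of the groups did not overlap, but the level stayed under 0.4 RPKM in each of the 6. The ratio of 31.6 rests on 1 control read (interval 5.28 to 1280). It was 20.7 without control replicate 1 and 19.3 without control replicate 2, and without control replicate 3, which held that read, Igfbp7 was at least 7.7-fold higher in low glutamine, with 3 reads over the group taken as the floor. Igfbp6, whose product prefers IGF-II, had 1, 0 and 0 reads in control and 0, 0 and 2 in low glutamine, so no difference was detectable at this depth.

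Markers of stroma and vessels were measured beside these genes, since both are rich sources of Igfbp5 and Igfbp7. The 8 fibroblast markers summed to 0.284 to 0.340 RPKM in the controls against 0.104 to 0.128 RPKM in low glutamine, with Col3a1 and Lum at 0 in all 6 libraries. The 6 endothelial markers summed to 0.294 to 0.307 and 0.440 to 0.590 RPKM, with Emcn at 0, and the 4 smooth muscle markers to 0.775 to 1.10 and 0.640 to 0.95 RPKM with none at 0 throughout. The lower fibroblast sum was that of Pdgfrb (0.271 ± 0.0274 and 0.0739 ± 0.00586 RPKM), while the other fibroblast markers overlapped between the groups or were at 0. Among the smooth muscle markers Myh11 was higher in each low glutamine library (0.0106 ± 0.00709 and 0.0501 ± 0.0183 RPKM). Of the other lists, 4 hepatocyte markers summed to 1.59 to 2.05 RPKM in the controls against 8.88 to 9.69 RPKM in low glutamine, most of it Cyp2e1 (1.41 ± 0.18 and 8.05 ± 0.31 RPKM). The 4 glial and neuronal markers summed to 0.211 to 0.326 and 0.942 to 1.04 RPKM, with Sox10 at 0, and the 5 immune markers to 1.48 to 1.5 and 2.04 to 2.37 RPKM, with Adgre1 at 0. The immune markers went both ways. Cd68 was higher in low glutamine (0.685 ± 0.113 and 2.0 ± 0.188 RPKM) and Itgam lower (0.783 ± 0.119 and 0.23 ± 0.0175 RPKM), while Ptprc and Cd3e overlapped between the groups. The part of fibroblast, endothelial, smooth muscle, hepatocyte-type, glial or immune expression in the binding protein levels was not tested.

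Summed over the family, binding protein RNA was 19.4, 19.9 and 18.7 RPKM in control replicates 1 to 3 against 168, 163 and 165 RPKM in low glutamine replicates 1 to 3. RPKM is a level per transcript length, and on that basis these genes were added and compared. The annotation that set the lengths is not given. The RPKM sum over all genes also differed, at 362113 to 370048 in the controls and 327884 to 347168 in low glutamine. The leading gene changed places. Igfbp4 made up 84.1% ± 0.154 of the sum in control and 29.7% ± 1.65 in low glutamine, and Igfbp2 made up 14.6% ± 0.476 and 67.6% ± 1.65 (SD, n = 3). The ratio of Igfbp2 to Igfbp4 level was 0.167 to 0.179 in control and 2.08 to 2.40 in low glutamine, lowest in low glutamine replicate 3. The other 5 binding proteins each stayed at or under 1.02% of the sum in every library.

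**Figure D2:**
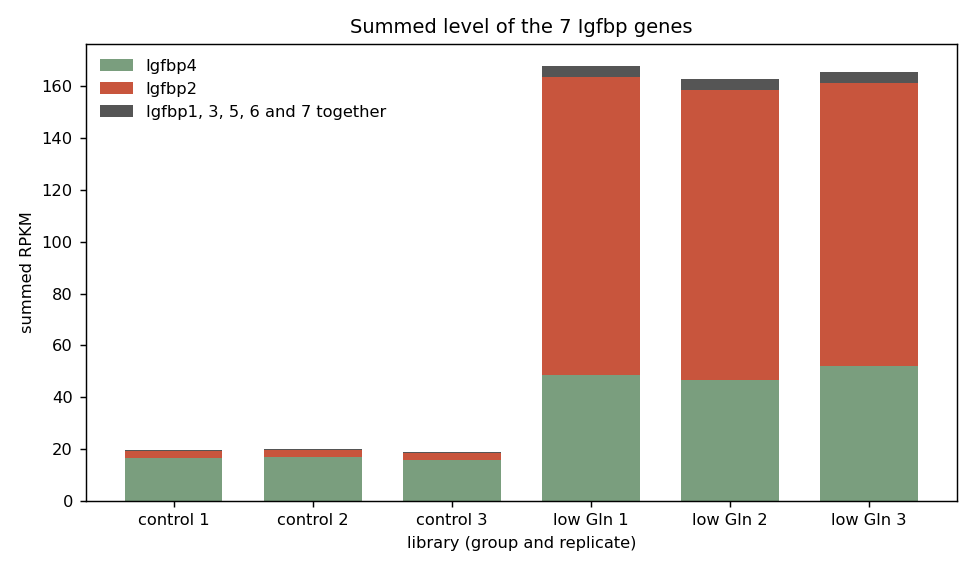
Summed RPKM of the 7 Igfbp genes (vertical axis, from 0) in each library (horizontal axis), stacked as Igfbp4, Igfbp2 and the other 5 together. The 3 low glutamine bars reach 163 to 168 RPKM, mostly Igfbp2, and the 3 control bars 18.7 to 19.9 RPKM, mostly Igfbp4.

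Igf2, the ligand gene, went the other way. It encodes IGF-II, a fetal growth factor expressed from the paternal allele, and lies on chromosome 7, 142650768 to 142666816. Igf2 measured 2.98, 2.56 and 2.62 RPKM in the controls against 0.798, 0.825 and 1.05 RPKM in low glutamine. Each control lay above each low glutamine library, of which replicate 3 was the highest. Means of 2.72 ± 0.229 and 0.890 ± 0.137 RPKM correspond to a level 3.06-fold lower in low glutamine (log2 difference -0.98 ± 0.07 SE). The antisense gene Igf2os (142659680 to 142670356) overlaps Igf2, and reads of the pair cannot be told apart where counting ignores strand, a setting that the labels do not state. Igf2os was listed at 0.103 to 0.133 RPKM in the controls against 0.0443 to 0.0570 RPKM in low glutamine, well under Igf2. H19, the maternally expressed neighbour of Igf2, rested on 11, 4 and 3 reads in control and 12, 9 and 2 in low glutamine, and its groups overlapped.

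The receptors were lower by a smaller margin than Igf2. Igf1r (chromosome 7, 67952257 to 68233668) measured 1.74, 1.49 and 1.40 RPKM in the controls against 1.15, 1.24 and 1.02 RPKM in low glutamine, from 410 to 651 and 346 to 491 reads. Its groups were apart by a narrow margin, and the mean was lower by 26.2% of control (1.55 ± 0.175 and 1.14 ± 0.112 RPKM, log2 difference -0.25 ± 0.07 SE). Insr (chromosome 8, 3150922 to 3279649) measured 8.24, 8.35 and 8.82 RPKM in the controls against 7.36, 7.28 and 8.0 RPKM in low glutamine, from 2023 to 2775 and 2124 to 2354 reads. The Insr groups were also apart, by less than the spread within either group, with means of 8.47 ± 0.309 and 7.55 ± 0.395 RPKM (log2 difference -0.15 ± 0.06 SE).

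The size of both receptor differences depended on scaling. With each library rescaled to a common RPKM sum, which moved the median log2 difference of all genes from 0.03 to 0.14, Igf1r stood at -0.18 and Insr at -0.03. With median-of-ratios scaling they stood at -0.27 and -0.18, and with quantile normalization at -0.51 and -0.19. With a library left out, Igf1r ranged from -0.29 to -0.19 and Insr from -0.19 to -0.12. Both missed the adjusted p threshold of 0.05 with rescaling to a common sum. Insr also missed it without control replicate 2, control replicate 3, low glutamine replicate 1 or low glutamine replicate 2. Igf1r missed it without control replicate 1. The level of Insr over that of Igf1r was 4.73, 5.59 and 6.29 in control and 6.39, 5.85 and 7.83 in low glutamine, and these ranges overlapped.

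By level, control organoids had Igfbp4 first, then Insr, Igfbp2, Igf2 and Igf1r, and low glutamine organoids had Igfbp2 first, then Igfbp4 and Insr. Igfbp2 and Igf2 overlapped in control. In low glutamine Igfbp3, Igfbp1, Igfbp5, Igf1r and Igf2 followed at 0.798 to 1.72 RPKM, each overlapping the next in that order. In control Igfbp3 and Igfbp5 overlapped, and Igfbp1, Igfbp7 and Igfbp6 came last with overlapping ranges. In low glutamine Igfbp7 and then Igfbp6 came last.

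Of the 10 genes, 6 lay wholly higher and 3 wholly lower in low glutamine. Among all 18842 rows with any value above 0, 57.1% did not overlap between the groups, 36.0% higher and 21.1% lower. Only 5 of the 10 genes had a mean of at least 1 RPKM and were tested: Igf1r was the closest above this limit (1.34 RPKM) and Igfbp3 the closest below (0.818 RPKM). Igf2 reached the limit only through the control group. In the limma fit over 11082 genes all 5 were called at an adjusted p under 0.05, Igfbp2 and Igfbp4 higher and Igf2, Igf1r and Insr lower, where 66.4% of all tested genes were called, 36.1% higher and 30.3% lower. With no filter on low values 9 of 10 were called, beside 48.8% of all genes. Since these genes were chosen with this comparison known, nothing is read from the counts.

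**Figure D3:**
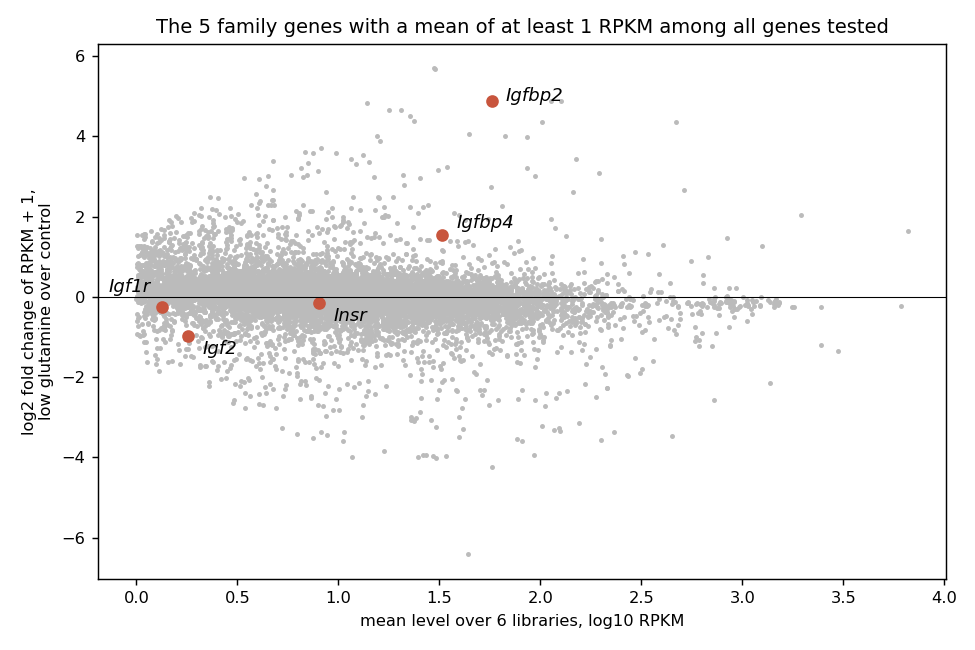
Log2 difference of RPKM + 1, low glutamine over control (vertical axis), against the mean level over the 6 libraries in log10 RPKM (horizontal axis) for all 11082 genes tested (grey) and the 5 family genes among them (red). Igfbp2 at 4.88 is near the upper edge of the cloud, Igfbp4 at 1.53 above most genes, Igf2 at -0.98 below most, and Igf1r and Insr within it.

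Profiles over the 6 libraries were compared with that of Igfbp2 by Euclidean distance of log2(RPKM + 1). Among the genes tested, leaving out predicted gene and clone symbols, the closest were the Paneth cell defensins Defa21, Defa37, Defa34, Defa22 and Defa31. Distances ran from 1.67 for Defa21 to 2.39 for Defa31. Defa31 measured 6.53 ± 0.351 RPKM in the controls against 220 ± 9.07 RPKM in low glutamine. Defensin genes are near-identical copies, so the value of any single copy is uncertain. Likeness over 6 libraries in 2 groups mostly reflects the difference between the groups.

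Among the binding protein genes, 4 form 2 pairs of chromosome neighbours that point towards each other. Igfbp1 and Igfbp3 on chromosome 11 are separated by 3539 bases, and Igfbp2 and Igfbp5 on chromosome 1 by 5590 bases, with 0 other genes of the table between them. All 4 were higher in low glutamine. Igfbp1 and Igfbp3 overlapped at 1.14 to 1.72 RPKM in low glutamine, while Igfbp2 stood at 109 to 115 RPKM and its neighbour Igfbp5 at 1.15 to 1.38 RPKM.

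The other genes of the pathway, 62 in 9 groups by role, were read from the same fit. Of these, 35 were tested, 16 rose and 5 fell, beside the 36.1% higher and 30.3% lower of all genes. The median log2 fold change was 0.10, and 0.03 over all genes tested. Of the calls 76.2% were higher, beside 54.4% of the calls over all genes. With rescaling to a common sum 88.0% were higher (22 rose, 3 fell), beside 69.1% over all genes. Of the genes tested 8 fell with median-of-ratios scaling (16 rose), 8 without low glutamine replicate 3 (14 rose) and 3 without control replicate 2 (15 rose). Pappa2, Stc1, Pik3ip1 and Igf2bp3 averaged under 1 RPKM in control and reached the limit only through the low glutamine group. With no filter, the adjusted p from limma was 1.8e-06 for Pappa2, 9.4e-06 for Stc1, 8.2e-05 for Pik3ip1 and 0.00034 for Igf2bp3. With no filter, 28 of 59 were called, beside 48.8% of all genes.

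On the log2(RPKM + 1) scale the 2 largest changes among the pathway genes tested were those of Pappa2 and Mmp7, listed as proteases of the binding proteins. By ratio, Stc1 (9.89-fold) and Cyr61 (6.08-fold) exceeded Mmp7 (5.03-fold). Pappa2, a protease that cuts IGFBP-3 and IGFBP-5, measured 0.776, 0.833 and 0.811 RPKM in the controls against 8.5, 8.34 and 8.93 RPKM in low glutamine. It rose 10.7-fold, with no overlap (log2 fold change 2.41 ± 0.06 SE, limma adjusted p = 2.9e-12). Stc1, whose product stanniocalcin-1 inhibits pappalysin, rose from 0.190 ± 0.0540 to 1.88 ± 0.0672 RPKM, 64 control reads against 669 (1.28 ± 0.07, adjusted p = 7.3e-09). Mmp7, the matrix protease of Paneth cells, rose from 21.4 ± 0.662 to 108 ± 5.46 RPKM (2.28 ± 0.06, adjusted p = 5.2e-12). Of 8 proteases and inhibitors, 4 were tested and these 3 rose, beside 36.1% higher of all genes tested. Since Pappa2 and Stc1 reached the limit only through the low glutamine group, nothing is read from this count. When any low glutamine library was left out, Stc1 fell under the limit and was not tested. Stc2, also an inhibitor of pappalysin, did not pass, at 14.0 ± 0.145 and 14.7 ± 0.959 RPKM (adjusted p = 0.34), and rose by 0.18 with rescaling to a common sum. Pappa, which cuts IGFBP-4, rested on 1 read in all controls together and 6 in low glutamine, and the protease Htra1 on 4 and 10 reads.

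Other ligands were all but undetected. Igf1 had 1 read in each group, and the insulin genes Ins1 and Ins2 were listed at 0 in each library. Igf2r, the receptor that takes IGF-II up for degradation, rose from 16.6 ± 0.687 to 21.5 ± 0.920 RPKM (0.35 ± 0.05, adjusted p = 0.00011). Ide, the insulin-degrading enzyme, did not pass (51.7 and 47.3 RPKM), but passed with median-of-ratios scaling (-0.16) and without low glutamine replicate 3 (-0.17).

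Among 10 other proteins with an IGFBP domain, 2 were tested. Cyr61, a matrix-associated signalling protein and common readout of YAP, measured 1.96, 2.44 and 1.74 RPKM in the controls against 12.3, 12.5 and 12.5 RPKM in low glutamine (2.15 ± 0.08, adjusted p = 1.2e-10). All its low glutamine libraries were above the controls. Crim1 did not pass (6.00 and 5.59 RPKM), but passed with quantile normalization (-0.16).

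Of 4 tested adaptors only Gab1 rose (5.44 to 6.86 RPKM, 0.29 ± 0.06, limma adjusted p = 0.0012), beside 36.1% higher of all genes tested. Irs2, the main insulin receptor substrate of many tissues, measured 2.94 ± 0.306 and 2.80 ± 0.387 RPKM (adjusted p = 0.56). Under the limit of 1 RPKM were Irs1, at 0.218 ± 0.0537 and 0.580 ± 0.0667 RPKM, and the imprinted gene Grb10, an adaptor that restrains both receptors. Grb10 measured 1.32, 1.22 and 1.06 RPKM in the controls against 0.154, 0.147 and 0.281 RPKM in low glutamine, from 568 and 93 reads in all. Its groups were far apart, and in the fit with no filter it fell by 0.88 on the log2 scale (adjusted p = 0.00013).

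Of 9 tested PI3K and AKT genes 5 rose and 2 fell, beside 36.1% higher and 30.3% lower of all genes tested. Nothing is read from this count. The regulatory subunit Pik3r1 rose from 30.2 ± 0.530 to 43.5 ± 0.471 RPKM (0.51 ± 0.05, adjusted p = 1.6e-06), the catalytic subunit Pik3ca by 0.25, Pik3r3 by 0.22, and the kinases Akt1 and Akt2 by 0.21 and 0.22. Pik3r2 and Pik3cb fell by 0.22 and 0.15. Without control replicate 2, Pik3r3 (0.17), Pik3r2 (-0.17) and Pik3cb (-0.14) missed the threshold. Pik3r3 also missed it without low glutamine replicate 3 (0.16), and Pik3cb without control replicate 1 (-0.13), low glutamine replicate 1 (-0.13) or low glutamine replicate 2 (-0.12). With rescaling to a common sum, Pik3r2 (-0.10) and Pik3cb (-0.04) missed it as well. So did Pik3r3 (0.16) and Pik3r2 (-0.16) with quantile normalization, and Pik3r3 (0.22) and Pik3cb (-0.15) with no filter. Mtor, the growth kinase downstream, did not pass (5.27 and 5.80 RPKM, adjusted p = 0.069) and rose by 0.22 with rescaling to a common sum.

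Of 5 brakes on this signal, 2 rose and 1 fell, beside 36.1% higher and 30.3% lower of all genes tested. Since Pik3ip1 reached the limit only through the low glutamine group, nothing is read from this count. The PI3K inhibitor Pik3ip1 rose from 0.793 ± 0.0881 to 2.37 ± 0.159 RPKM (0.91 ± 0.07, adjusted p = 1.7e-07) and the AKT phosphatase Phlpp1 from 3.24 to 6.24 RPKM (0.77 ± 0.06). Its relative Phlpp2 fell from 4.61 to 3.05 RPKM (-0.47 ± 0.06, adjusted p = 2.1e-05). Among FOXO and GSK3 genes Foxo1 rose (8.64 to 10.2 RPKM) and Gsk3a fell (44.8 to 37.2 RPKM), while Foxo3 measured 11.3 ± 0.792 and 10.9 ± 0.462 RPKM (adjusted p = 0.59).

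Of the RNA-binding proteins named for Igf2 mRNA, Igf2bp2 fell from 24.7 ± 0.947 to 19.1 ± 0.713 RPKM (-0.36 ± 0.05, adjusted p = 8.3e-05) and the oncofetal Igf2bp3 rose from 0.846 ± 0.0495 to 1.67 ± 0.126 RPKM (0.53 ± 0.07, adjusted p = 1.8e-05). Plagl1, an imprinted zinc finger factor, rose by 0.40, and Hmga2 did not pass (10.6 and 8.88 RPKM, -0.23). With the replicate number as a block Hmga2 passed (-0.23 ± 0.06, beside ± 0.12 in the main fit). That smaller SE rests mostly on the spread shared across genes, not on that of Hmga2, whose groups overlapped. Hmga2 also passed without control replicate 3 (-0.34) or low glutamine replicate 1 (-0.34).

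**Figure D4:**
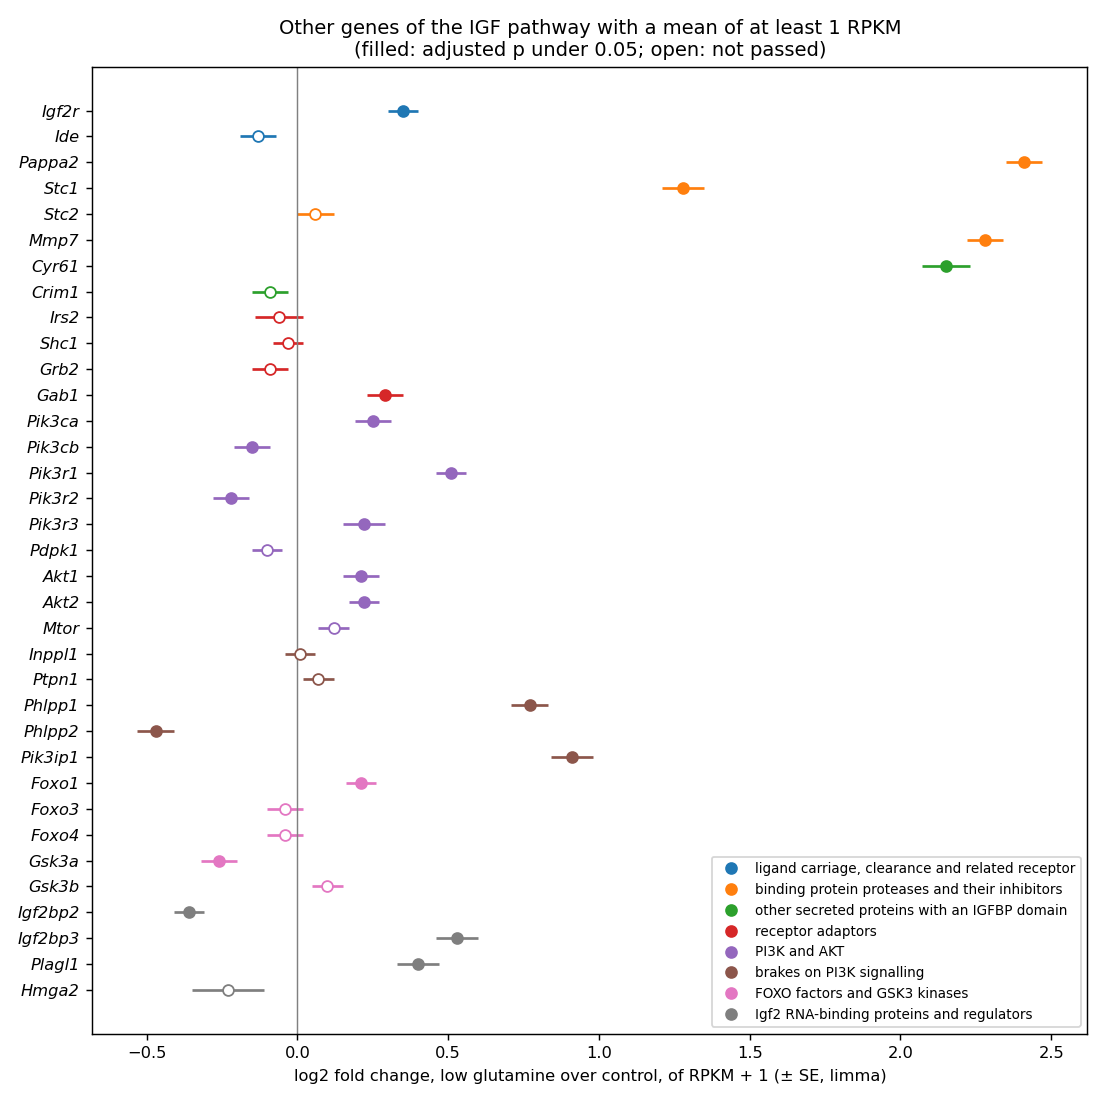
Log2 fold change of RPKM + 1, low glutamine over control, with its SE from limma (horizontal axis) for the 35 other pathway genes tested (vertical axis), coloured by role, filled where the adjusted p is under 0.05. Pappa2, Mmp7, Cyr61 and Stc1 lie beyond 1, and the PI3K, AKT, FOXO and GSK3 genes within 0.51 of 0.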

How the data were processed

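RNA-seq of 6 organoid libraries was deposited by the authors as RPKM, reads scaled to transcript length and library depth, per the file headers 1 column per library. Per the submitters' processing notes, the tools were Partek, HISAT2 2.0.4 and CASAVA 1.8, on mm10. The sources used here do not give the annotation, the counting rule or whether strand was used. Groups follow the labels' titles.

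RPKM are not counts, so the fit was limma 3.58.1 (R 4.3.3) with a variance trend on log2(RPKM + 1), over genes averaging 1 RPKM or more, two-sided, with Benjamini-Hochberg adjustment over all genes and a threshold of 0.05. Genes below the limit have values from the same fit with no filter. The fit was tested on simulated data. Tables and plots used Python 3.11.15, pandas 2.3.3, numpy 2.4.6 and matplotlib 3.10.9.

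Depth came from the value of 1 read in single-exon GENCODE genes under 0.3 RPKM and from the most frequent ratio between libraries. A gene's reads are the smallest whole numbers, within 0.02 in all 6 libraries, in the ratio of RPKM times depth, with up to 2500 reads for the lowest library above 0 and an implied length of 200 to 12000 bases. No such numbers were found for Igfbp2 and Igf2. PCR duplicates are not separated, so intervals (exact, 95%) and the floor of 3 reads cover counting error only.

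Coordinates are 1-based RefSeq gene bounds on GRCm38.p6, matched by symbol or synonym for all but 118 rows. Promoters are from RefSeq, same build.

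Members, lists and tests were chosen with earlier results of these data known. Named were all members, 16 listed pathway genes and, per role, up to 3 genes with the largest change among those past the threshold without overlap. A pathway gene and a marker gene of the lists are not reported here and were left out of their counts. Others, among them Ctgf and Igfbpl1, were named after their values were seen. Deviations of same-numbered libraries were correlated (0.154, 0.245 and 0.565), each above 0.1, so the number was tried as a block. It is not established as a pairing. Control replicate 1 with low glutamine replicate 2 gave 0.203, and control replicate 2 with low glutamine replicate 1 gave 0.361. The numbers appear in the labels' titles without a stated meaning, and the main fit was unpaired. Alternatives were pseudocounts of 0.1 and 5, no filter and a limit of 5 RPKM, 3 scalings, each library left out, the replicate block, and autosomal genes.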

Additional observations from a re-analysis of the deposited data

How the results depend on the processing

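Over 15 alternatives Igfbp2 stayed between 3.90 and 5.26 and Igfbp4 between 1.34 and 1.66 on the log2 scale, and Igf2 between -1.52 and -0.39 over the 14 in which it was tested. Of the members' values, 66 kept their direction and side of the threshold and 7, all of Igf1r and Insr, kept only the direction. Of the other named genes' values, 381 kept both, 13 missed the threshold, all of Pik3cb, Pik3r2 and Pik3r3, 8 passed it, of Crim1, Hmga2, Ide, Mtor and Stc2, and 6 changed sign, none past the threshold: Foxo3 (0.08), Irs2 (0.04) and Crim1 (0.02) with rescaling to a common sum, Ide with quantile normalization (0.02), and Irs2 without control replicate 2 (0.0) or low glutamine replicate 3 (0.02), in a range from -0.13 to 0.02 with a library left out. Members called were 9 with no filter and 3 with a limit of 5 RPKM, where more or fewer genes were tested. They were 3 with rescaling to a common sum, where Igf1r (-0.18) and Insr (-0.03) missed the threshold. Of all genes, 9196 of 18846 were called with no filter, 5279 of 7994 with the limit and 8232 of 11093 with rescaling. Members called were 4 to 5 with a library left out, beside 6651 to 7298 of all genes. Pathway genes called were 21, 13 with the limit of 5 RPKM (26 tested), and 18 to 22 with a library left out. Their higher share was 76.2%, 66.7% with median-of-ratios scaling, 63.6% without low glutamine replicate 3 and 88.0% with rescaling to a common sum. Over all genes that rescaling moved the higher share from 54.4% to 69.1%. With the replicate number as a block, 5 members, 22 pathway genes and 7736 of all genes were called, and Hmga2 was the only one of the named genes tested above 1 RPKM whose call changed. That fit gave these genes SEs of 0.06 to 0.08, which rest mostly on the spread shared across genes. On autosomes alone, 5 members and 21 pathway genes were called, beside 7129 of 10758 genes. Depth limits Igfbp1, Igfbp6 and Igfbp7, which rest on 2, 1 and 1 control reads.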

Other observations

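The relatives of the binding proteins that were too low for the fit above 1 RPKM can be read from whole reads. Ctgf, a matrix-associated signalling protein with an IGFBP domain, had 4, 6 and 1 reads in control replicates 1 to 3 and 86, 80 and 99 in low glutamine (0.0470 ± 0.0273 and 1.17 ± 0.247 RPKM, SD, n = 3). Igfbpl1 had 3, 1 and 3 reads and 27, 45 and 27 reads. For both, every low glutamine library was above every control. Nov and Wisp1, of the same family as Ctgf, had 8 reads each over the controls and 1 each over the low glutamine libraries. These genes were picked out after their values were seen, and their levels are given without a test.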
